A study of Homo sapiens with 6 samples.

Results

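The HOX genes of the 4 clusters were examined in HFL-1, a human fibroblast line derived from fetal lung. A gene was a member if its symbol was HOXA, HOXB, HOXC or HOXD followed by digits and nothing more, which left out the antisense RNAs. The 38 such genes reported here were among the 23355 gene entries in the table of read counts, and the rule used no measured level. All 38 were placed on GRCh37, the build named hg19 by the authors. The HOXA cluster held 10 of them on chromosome 7 (27139973 to 27239710, minus strand), and the HOXB cluster held 10 on chromosome 17 (46605888 to 46806112, minus strand). The HOXC cluster held 9 on chromosome 12 (54332615 to 54449814, plus strand), and the HOXD cluster held 9 on chromosome 2 (176957449 to 177055635, plus strand).

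HOX genes encode homeodomain transcription factors that give cells their address along the body axis. Within a cluster, the genes lie in the order in which they act from head to tail. Genes with the same number in different clusters, the paralogues, descend from a shared ancestor, with low numbers anterior and high numbers posterior. Fibroblasts taken from adult tissues are known to keep a HOX pattern that reflects where in the body they came from. HOX proteins bind DNA together with TALE homeodomain partners of the PBX, MEIS and PKNOX families, Polycomb proteins keep silent HOX genes off, Trithorax proteins keep active ones on, and retinoic acid activates the anterior genes in the embryo.

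The series asked which genes depend on TAZ, a transcriptional coactivator of the Hippo pathway encoded by WWTR1, in this cell line. Every culture received an siRNA with the reagent Lipofectamine RNAiMAX, and RNA was taken 48 h later. The 3 groups differed in the siRNA alone: siNTC was a non-targeting control, and siTAZ #1 and siTAZ #2 were 2 siRNAs against TAZ. Each group had 2 libraries, which the submitters call biological replicates. The paper states that each TAZ siRNA was transfected in duplicate, and does not say this of siNTC. The p-values measure the spread between these libraries. HFL-1 is a single line grown in culture, and an siRNA can act on genes other than its target. No other group, dose or time was analysed here.

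Libraries held 15648055 to 32078188 counts. Levels are given as CPM, a gene's counts scaled to a common library size by TMM normalization. WWTR1 stood at 132 and 131 CPM with siNTC, at 26.4 and 28.4 CPM with siTAZ #1, and at 46.1 and 43.1 CPM with siTAZ #2. Its level fell by 2.26 on the log2 scale with siTAZ #1 (SE 0.10, FDR = 0.00062) and fell by 1.56 with siTAZ #2 (SE 0.10, FDR = 0.00068), and it was lower with siTAZ #1 than with siTAZ #2 by a log2 difference of -0.70 (SE 0.10, FDR = 0.005). Here and below, FDR is the p-value of edgeR's quasi-likelihood test adjusted over the 14053 genes tested, and a gene was called higher or lower where its FDR was under 0.05. The WWTR1 difference between the siRNAs was not called in an exact test of 4 libraries (FDR = 0.24 by that test). All 10 fibroblast markers were at 1 CPM or more in every library. Their summed level was 34930 to 35010 CPM with siNTC, 23210 to 24090 with siTAZ #1 and 27220 to 28980 with siTAZ #2. All 5 markers of lung mesenchyme were at 1 CPM or more in every library, against 1 of 8 epithelial (KRT18), 0 of 4 endothelial and 0 of 4 blood cell markers. The epithelial marker EPCAM was at 1.585 and 1.199 CPM with siNTC, 0.3226 and 0.7668 with siTAZ #1, and 2.384 and 2.356 with siTAZ #2. EPCAM was lower with siTAZ #1 than with siTAZ #2 by a log2 difference of -2.03 (SE 0.5, FDR = 0.029). The endothelial markers summed to 0.888 to 1.58 CPM with siNTC, 2.12 to 2.52 with siTAZ #1 and 2.06 to 3.50 with siTAZ #2, and the blood markers to at most 0.664 CPM in any library. The lung mesenchyme markers summed to 549.5 to 602 CPM with siNTC, 744 to 758 with siTAZ #1 and 567 to 633 with siTAZ #2, and the epithelial markers to 36.6 to 38.1, 30.5 to 38.3 and 47.7 to 53.1 CPM. The part of these marker levels in the HOX results was not tested. In replicate 2 of siTAZ #1, counts were nearly missing over the end of chromosome 22, from RANGAP1 on, and over X and Y. The HOX clusters lie outside that region, but the common dispersion of the fit was 0.0807 with the 573 tested genes of that depleted region and 0.0166 without them.

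In the siNTC cells, the anterior and central genes of HOXA and HOXB reported here were on other than HOXB1, and HOXC, HOXD and all posterior genes were near or at 0. A gene was taken as on at 1 CPM or more in both siNTC libraries, as low with any count below that, and as not detected at 0 counts in both. By this measure 13 genes were on, namely HOXA2 to HOXA7 and HOXB2 to HOXB8. Another 19 were low and 6 were not detected (HOXA11, HOXB1, HOXC5, HOXC11, HOXD4 and HOXD12). A sum of 0 counts over both siNTC libraries allows a level of up to 0.0949 CPM, taking 3 counts as the limit, which covers counting error only.

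By paralogue number, 4 of the 7 anterior genes (1 to 3) were on, against 9 of the 15 central genes (4 to 8) and 0 of the 16 posterior genes (9 to 13). The 16 posterior genes together took 18 and 23 counts in the siNTC libraries, or 1.14 and 1.45 CPM. HOXB ran from off to on between HOXB1, with 0 counts, and HOXB2, 11.6 kb away, with 28.9 and 22.6 CPM. At the other end, HOXB8 stood at 2.60 and 3.28 CPM and HOXB9, 5.9 kb away, at 0.317 and 0.0631 CPM. In HOXA, HOXA7 stood at 8.69 and 5.55 CPM and HOXA9, 5.8 kb away, at 0.0634 and 0.0631 CPM, or 1 count in each library. Both clusters thus passed from on to near 0 between the same paralogue groups, with no HOXA8 in the human genome.

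**Figure D1:**
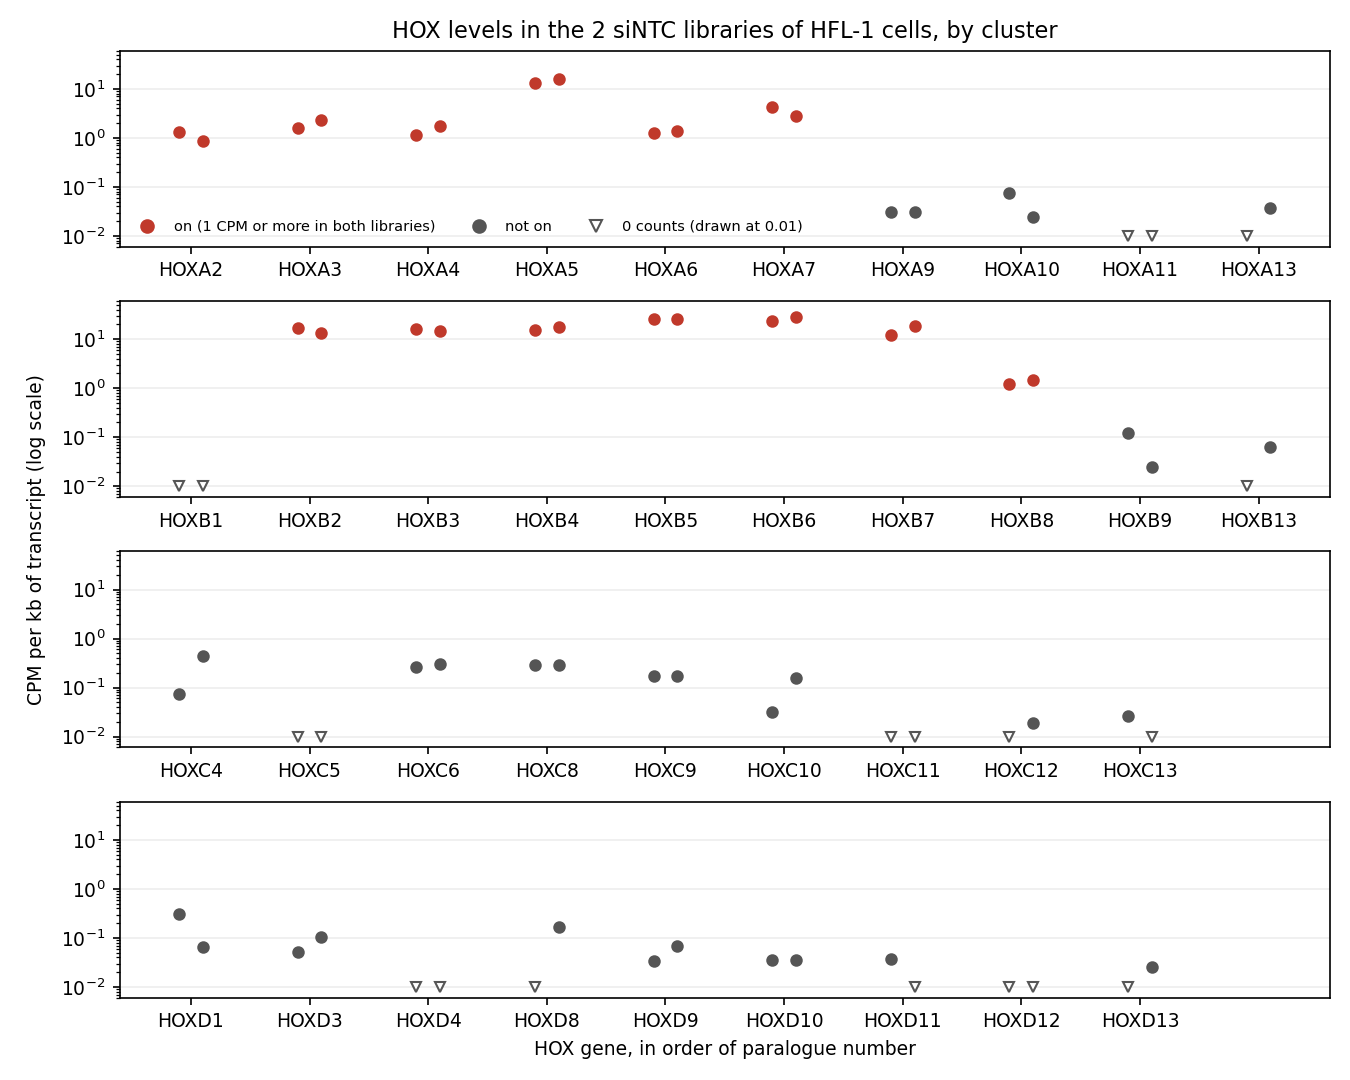
Level of each HOX gene in the 2 siNTC libraries (1 point each), as CPM per kb of transcript on a log axis, with a panel for each cluster and the genes in order of paralogue number. Red points mark genes on at 1 CPM or more in both libraries, and open triangles, drawn at 0.01, mark 0 counts. The red points cover HOXA2 to HOXA7 and HOXB2 to HOXB8, and no gene of HOXC, HOXD or the posterior groups is red.

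Levels of different genes were compared per kb of the reference transcript, with both siNTC libraries given. HOXB5 and HOXB6 were highest, at 25.6 and 26.3 CPM per kb for HOXB5 and 23.2 and 28.4 for HOXB6, and their ranges overlapped. Next came HOXB4, HOXB3, HOXB7, HOXB2 and HOXA5, with means from 14.4 to 16.5 CPM per kb, and the range of each overlapped that of its neighbour in this order. HOXA7 followed, at 4.31 and 2.75 CPM per kb, with no overlap with HOXA5 at 13.1 and 15.7. HOXA3, HOXA4, HOXB8, HOXA6 and HOXA2 had means from 1.09 to 1.97 CPM per kb, each overlapping the next. HOXA5, whose loss in the mouse disturbs lung and trachea formation, was thus the only HOXA gene at the level of the strong HOXB genes. HOXB genes took 83.5% and 82.6% of the counts of these HOX genes with siNTC.

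Of HOXC and HOXD, HOXC8 and HOXC6 had the highest means per kb in siNTC, at 0.289 and 0.287 CPM per kb for HOXC8 and 0.269 and 0.306 for HOXC6, and their ranges overlapped. HOXC4 had 2 counts in siNTC replicate 1 and 12 in replicate 2. HOXC4, HOXC6 and their neighbours share 5′ exons in some isoforms, so their few counts cannot be assigned with certainty.

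The HOX sum was higher with each siTAZ siRNA than with siNTC, and most of the difference lay in HOXB. The 38 HOX genes summed to 264 and 279.9 CPM with siNTC, 314 and 358 CPM with siTAZ #1, and 444 and 454 CPM with siTAZ #2, so that no group overlapped another. HOXB genes made up 220 and 231 CPM of this with siNTC, 265 and 307 with siTAZ #1, and 384 and 396 with siTAZ #2. HOXA genes summed to 41.1 and 44.9 CPM with siNTC, 45.7 and 47.1 with siTAZ #1, and 55.3 and 52.5 with siTAZ #2. HOXC genes summed to 1.32 to 2.66 CPM and HOXD genes to 0.888 to 2.96 CPM over the 6 libraries. These sums are descriptions with no test. In RNA from whole cultures, more RNA per cell and more cells that express a gene cannot be told apart.

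With siTAZ #2, 7 HOX genes were higher and 1 was lower than with siNTC, among 15 HOX genes with enough counts to be tested. Of all genes tested, 14.1% were higher and 14.4% lower in this comparison. The 7 were HOXA2, HOXA3, HOXA4, HOXB2, HOXB3, HOXB4 and HOXB5, and the gene that fell was HOXA5. Of the 13 genes on in siNTC, the other 5 (HOXA6, HOXA7, HOXB6, HOXB7 and HOXB8) were not called. The other genes tested were HOXC8 and HOXD1, and HOXD1 passed the count filter through its siTAZ #2 libraries, so it is left out of the medians and the counts of direction here and below. The median log2 fold change of the other 14 was 0.69, beside 0.01 over all genes tested. The siTAZ #2 libraries lay above both siNTC libraries for 11 of the 14, against 36.0% of all genes tested, and below both for HOXA5 alone, against 35.5%. By cluster, 3 of the 6 tested HOXA genes were higher and 1 lower, and 4 of the 7 tested HOXB genes were higher. By class, the 4 tested anterior genes other than HOXD1 were all higher (median log2 fold change 1.19), and 3 of the 10 tested central genes were higher and 1 lower (median 0.49). No posterior gene had enough counts. Genes of a cluster are neighbours and are not independent of each other.

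With siTAZ #1, HOXB5 alone was higher and no HOX gene was lower, at a background of 10.8% of all genes tested higher and 9.78% lower. At an unadjusted p under 0.05, 3 HOX genes were higher (HOXB3, HOXB4 and HOXB5) and 0 lower, against 18.8% and 16.6% of all genes tested. DESeq2 also called 1 higher and 0 lower, against 14.9% and 13.4% of all genes tested. The median log2 fold change of the 14 was 0.39, beside 0.02 over all genes tested, and 12 of the 14 values were above 0. The siTAZ #1 libraries lay above both siNTC libraries for 6 genes (HOXA2, HOXA4, HOXB3, HOXB4, HOXB5 and HOXC8), against 33.2% of all genes tested, and below both for none, against 31.1%. In those same 6 genes all 4 siTAZ libraries lay above both siNTC libraries, which held for 18.6% of all genes tested. The comparisons of the siRNAs with siNTC share the siNTC libraries, so the direction of one is not independent of the other.

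**Figure D2:**
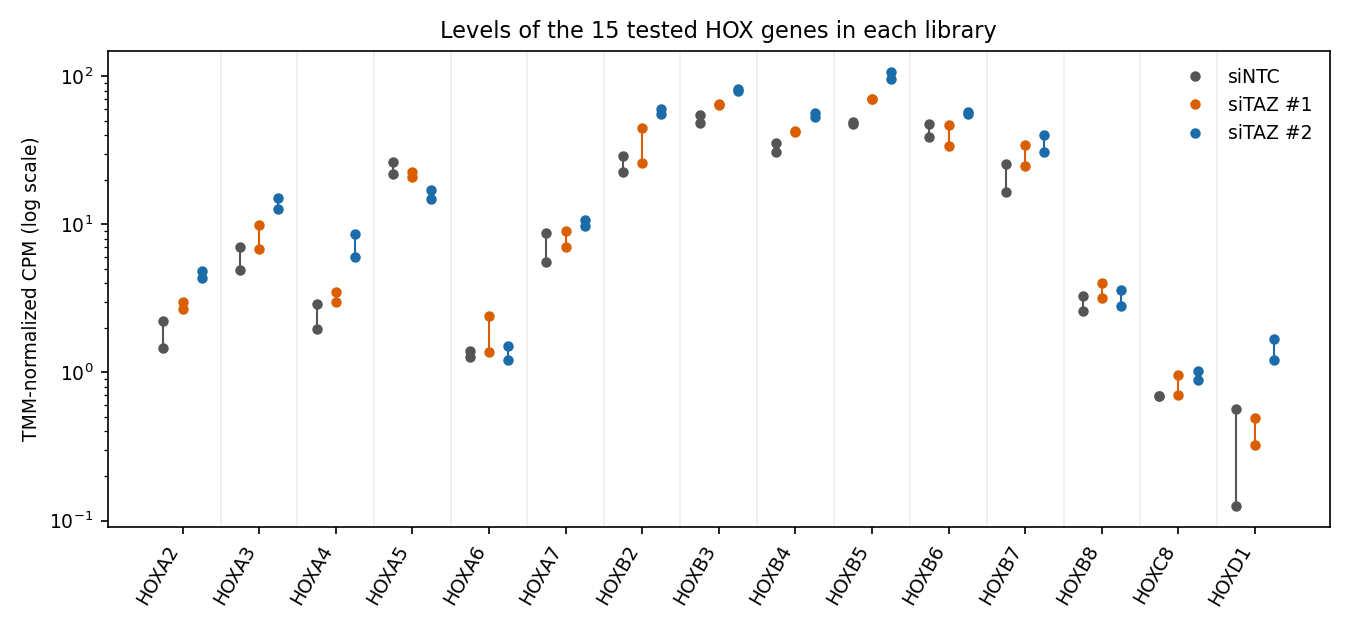
TMM-normalized CPM (log axis) of the 15 tested HOX genes in each of the 6 libraries, with a line joining the 2 libraries of a group (grey siNTC, orange siTAZ #1, blue siTAZ #2). The siTAZ #2 points lie above both siNTC points for 11 genes besides HOXD1 and below them for HOXA5.

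Of the HOXA genes, HOXA2, which patterns the hindbrain and pharyngeal arches (GRCh37 chromosome 7, 27139973 to 27142305), was at 2.22 and 1.45 CPM with siNTC, 2.97 and 2.67 with siTAZ #1, and 4.86 and 4.35 with siTAZ #2. The 3 groups did not overlap. With siTAZ #2 it was higher by 1.33 on the log2 scale (SE 0.32, FDR = 0.028). HOXA3, needed for the thymus and parathyroid glands (27145803 to 27192202), was at 4.88 and 7.07 CPM with siNTC, 6.77 and 9.88 with siTAZ #1, and 15.1 and 12.6 with siTAZ #2, and siNTC and siTAZ #1 overlapped. It was higher with siTAZ #2 by a log2 fold change of 1.22 (SE 0.29, FDR = 0.029). HOXA4 (27168126 to 27170399), a regulator of the cervical skeleton, was at 1.97 and 2.90 CPM with siNTC, 3.48 and 3.01 with siTAZ #1, and 8.65 and 6.04 with siTAZ #2, again with no overlap between groups. Its log2 fold change with siTAZ #2 was 1.59 (SE 0.32, FDR = 0.017), the highest of the called HOX genes. The reference transcript of HOXA3 spans HOXA4 in its introns, and 9.4% of the exon bases of HOXA3 and 1.8% of those of HOXA4 lie opposite exons of the antisense RNA HOXA-AS3. Whether the counting used strand is not given in the sources used here. HOXA-AS3 had 0.421 to 0.884 CPM over the 6 libraries.

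HOXA5 (27180671 to 27183300) lies 10.3 kb from HOXA4 and moved the other way. It was at 21.8 and 26.3 CPM with siNTC, 21.0 and 22.5 with siTAZ #1, and 14.8 and 17.1 with siTAZ #2. The siTAZ #2 libraries lay below all others, and siNTC and siTAZ #1 overlapped. It fell by 0.59 on the log2 scale with siTAZ #2 (SE 0.17, FDR = 0.044). That call was lost under library-total scaling (FDR = 0.055), with an offset for GC content (0.074), with low counts not filtered (0.054), and without siNTC replicate 1 (0.086), siNTC replicate 2 (0.21), siTAZ #2 replicate 1 (0.19) or siTAZ #2 replicate 2 (0.095), while the value stayed between -0.74 and -0.46 in these fits.

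HOXA6 and HOXA7 were not called in any comparison. HOXA6 was at 1.27 and 1.39 CPM with siNTC, 2.39 and 1.38 with siTAZ #1, and 1.22 and 1.51 with siTAZ #2, and all groups overlapped. HOXA7 was at 8.69 and 5.55 CPM with siNTC, 8.97 and 6.99 with siTAZ #1, and 9.77 and 10.6 with siTAZ #2, which lay above siNTC.

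Promoter windows of 250 bases before to 50 bases after the start are printed for HOXA2 and HOXA4, which were called higher, and for HOXA6, a close neighbour that was not called. They are RefSeq sequences on GRCh38.p14, a build other than that of the counts, all on the minus strand and written 5′ to 3′: chr7:27102634-27102933 for HOXA2, chr7:27130708-27131007 for HOXA4 and chr7:27147725-27148024 for HOXA6. Capitals mark matches, on either strand, to the letters of TEAD sites, where TAZ is bound through TEAD proteins (GGAATG), of MEIS or PKNOX sites (TGACAG), of HOX with PBX sites (TGATNNAT), of the TATA box (TATAAA) and of the CCAAT box (CCAAT).
HOXA2: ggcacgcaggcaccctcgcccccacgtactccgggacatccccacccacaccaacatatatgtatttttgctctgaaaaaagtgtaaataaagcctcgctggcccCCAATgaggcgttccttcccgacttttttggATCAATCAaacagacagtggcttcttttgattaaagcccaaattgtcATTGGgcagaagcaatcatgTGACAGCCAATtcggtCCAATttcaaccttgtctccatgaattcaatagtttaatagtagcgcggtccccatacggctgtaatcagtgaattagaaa
HOXA4: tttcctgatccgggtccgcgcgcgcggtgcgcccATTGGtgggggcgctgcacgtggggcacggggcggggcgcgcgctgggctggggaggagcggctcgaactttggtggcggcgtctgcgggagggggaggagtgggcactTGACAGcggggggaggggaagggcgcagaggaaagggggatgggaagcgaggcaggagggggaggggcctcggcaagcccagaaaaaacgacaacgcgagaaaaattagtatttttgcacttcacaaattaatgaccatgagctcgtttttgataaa
HOXA6: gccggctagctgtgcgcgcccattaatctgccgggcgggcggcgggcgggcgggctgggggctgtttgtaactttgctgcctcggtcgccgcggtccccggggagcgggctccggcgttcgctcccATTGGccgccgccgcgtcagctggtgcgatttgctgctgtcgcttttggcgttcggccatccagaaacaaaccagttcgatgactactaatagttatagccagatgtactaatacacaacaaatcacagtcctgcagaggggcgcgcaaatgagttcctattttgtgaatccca

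The HOXA2 window held a match to the MEIS or PKNOX letters 47 bases before the start, a match to the HOX with PBX letters 114 bases before it, and 4 CCAAT matches. The HOXA4 window held a MEIS or PKNOX match 107 bases before the start and a CCAAT match, and the HOXA6 window held a CCAAT match alone. None of the 3 held the TEAD letters, which says only that these letters are not in these windows. HOXA3, also called higher, has 7 windows, and 1 of them held the TEAD letters, 145 bases before its start. The table held 27 windows for 20 of the 38 members, and the TEAD letters stood in 8 of the 27, against 14.0% of all 34943 windows. Of these 8, 7 were windows of members that had too few counts to be tested. The windows cover 6 of the 15 tested members (HOXA2, HOXA3, HOXA4, HOXA6, HOXA7 and HOXD1), so these shares do not describe the HOX genes that changed. The MEIS or PKNOX letters stood in 4 of the 27 (15.8% of all windows), the HOX with PBX letters in 3 (7.42%), the TATA box in 5 (11.6%) and the CCAAT box in 18 (34.6%). Some genes have several windows and HOXC4 and HOXC5 share theirs, so the windows are not independent. The median window of the members held 22 CpG dinucleotides, beside 14 over all windows, at a like GC content (58.0% and 58.7%). A match is a description of the letters and not a binding site.

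Of the HOXB genes, HOXB5, which is expressed in the mesenchyme of the developing lung, was the only HOX gene called with both siRNAs, against 5.49% of all genes tested that were called higher with both. Its gene spans 46668619 to 46671141 on chromosome 17. Levels were 47.7 and 48.9 CPM with siNTC, 69.7 and 70.4 with siTAZ #1, and 95.6 and 106 with siTAZ #2, so the libraries of a group lay close together and the 3 groups stood apart. It was higher by 0.54 with siTAZ #1 (SE 0.10, FDR = 0.015) and by 1.06 with siTAZ #2 (SE 0.10, FDR = 0.0015) on the log2 scale. The siTAZ #2 call was kept in each of the 20 alternatives, of which the FDR of 0.1 only loosens the threshold and could not lose it. The siTAZ #1 call did not pass when siNTC replicate 1 (FDR = 0.12) or siNTC replicate 2 (0.10) was left out, nor in an exact test of 4 libraries (0.44).

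HOXB2, HOXB3 and HOXB4 were higher with siTAZ #2. HOXB2, active in the hindbrain (46618256 to 46622471), was at 28.9 and 22.6 CPM with siNTC, 26.1 and 44.9 with siTAZ #1, and 59.9 and 55.8 with siTAZ #2. Its siTAZ #1 libraries were far apart and overlapped siNTC, and its log2 fold change with siTAZ #2 was 1.17 (SE 0.28, FDR = 0.028). HOXB3 (46626232 to 46682274), which acts with its paralogue HOXA3 in the neck and hindbrain, was at 54.6 and 48.1 CPM with siNTC, 64.5 and 63.9 with siTAZ #1, and 81.7 and 79.97 with siTAZ #2. HOXB4, known for expanding blood stem cells (46652869 to 46655712), was at 30.8 and 35.2 CPM with siNTC, 42.8 and 42.1 with siTAZ #1, and 56.8 and 52.9 with siTAZ #2. In both HOXB3 and HOXB4 the 3 groups stood apart, with siTAZ #1 between the others. Their log2 fold changes with siTAZ #2 were 0.66 (SE 0.10, FDR = 0.0077) for HOXB3 and 0.73 (SE 0.12, FDR = 0.0093) for HOXB4, and with siTAZ #1 neither passed the threshold (FDR = 0.082 and 0.092). HOXB4 lies within the span of HOXB3, and 2.3% of the exon bases of HOXB3 lie opposite HOXB-AS3, which was at 13.5 and 14.3 CPM with siNTC, 16.0 and 13.6 with siTAZ #1, and 17.8 and 18.5 with siTAZ #2.

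HOXB6, HOXB7 and HOXB8, which follow HOXB5 in the cluster, were not called in any comparison. HOXB6 was at 38.9 and 47.5 CPM with siNTC, 33.7 and 47.1 with siTAZ #1, and 55.7 and 57.0 with siTAZ #2. HOXB7 was at 16.4 and 25.5 CPM with siNTC, 24.8 and 34.5 with siTAZ #1, and 30.8 and 40.0 with siTAZ #2. In both genes the siTAZ #2 libraries lay above siNTC and those of siTAZ #1 overlapped it. HOXB8, a regulator of blood cell maturation, was at 2.60 and 3.28 CPM with siNTC, 3.16 and 3.99 with siTAZ #1, and 2.81 and 3.62 with siTAZ #2, and all groups overlapped.

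**Figure D3:**
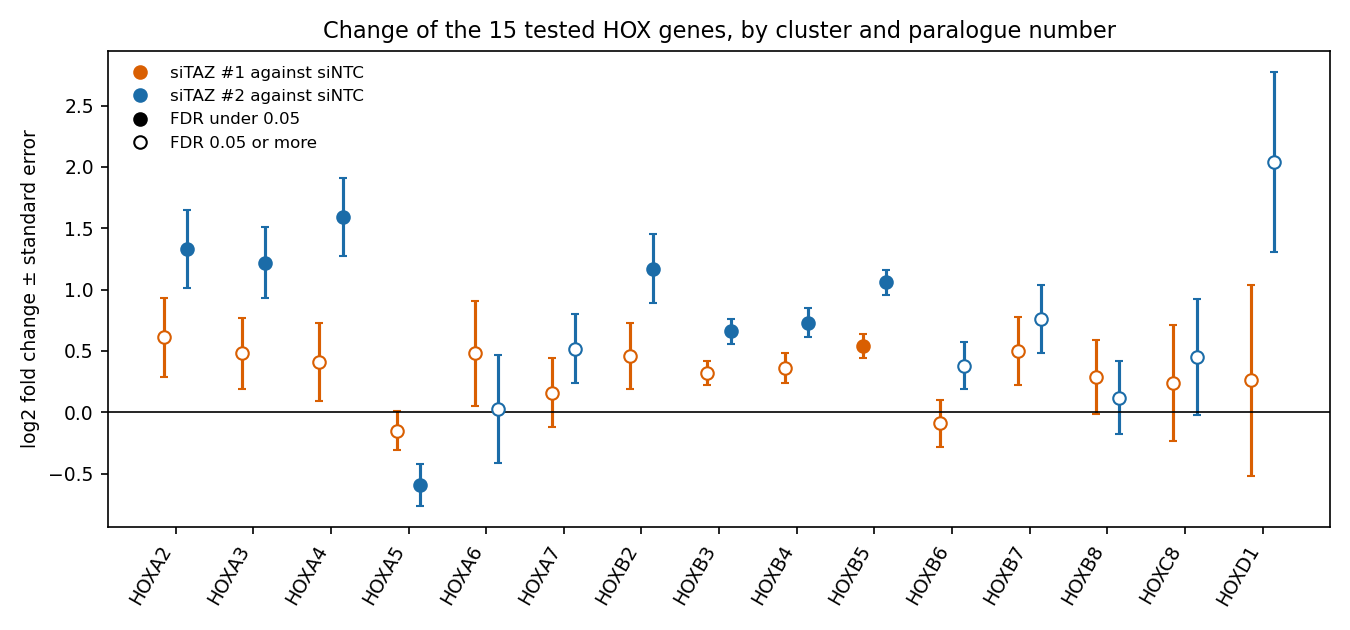
Log2 fold change against siNTC with its standard error for the 15 tested HOX genes in cluster order, with siTAZ #1 in orange and siTAZ #2 in blue, and filled points at an FDR under 0.05. With siTAZ #2 the filled points run from HOXA2 to HOXA5, where the sign turns (1.59 for HOXA4, -0.59 for HOXA5), and from HOXB2 to HOXB5; with siTAZ #1 HOXB5 alone is filled.

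Of the 8 siTAZ #2 calls, 4 (HOXA2, HOXA3, HOXA5 and HOXB2) were lost whichever of the 4 libraries compared was left out, 3 (HOXA4, HOXB3 and HOXB4) were lost for all but 1 of them, and HOXB5 alone was kept each time. The libraries left out were, in turn, siNTC replicate 1, siNTC replicate 2, siTAZ #2 replicate 1 and siTAZ #2 replicate 2. Each such fit left a group with a lone library, and no share of all genes called is given for it. The lost calls are therefore not read as a property of the HOX genes. In the same order of libraries left out, HOXA2 had a log2 fold change of 1.64, 1.03, 1.24 and 1.38 (FDR = 0.059, 0.13, 0.12 and 0.094), HOXA3 of 0.95, 1.49, 1.08 and 1.32 (FDR = 0.15, 0.071, 0.13 and 0.086), and HOXB2 of 1.34, 0.98, 1.11 and 1.19 (FDR = 0.095, 0.16, 0.12 and 0.10). HOXA4 was lost without siNTC replicate 1 (1.32, FDR = 0.10), siNTC replicate 2 (1.88, FDR = 0.057) and siTAZ #2 replicate 1 (1.31, FDR = 0.088). HOXB3 was lost without siNTC replicate 2 (FDR = 0.07), siTAZ #2 replicate 1 (0.051) and siTAZ #2 replicate 2 (0.052), and HOXB4 without siNTC replicate 1 (0.079), siNTC replicate 2 (0.05) and siTAZ #2 replicate 1 (0.057). No HOX gene called in the full fit changed sign. When the genes of the depleted region were left out of the fit, the same 8 calls were made with siTAZ #2. HOXB7 was added as higher, at a background of 19.4% higher and 19.2% lower. HOXD1 also fell under the threshold there, but it is not counted, as it passed the count filter through its siTAZ #2 libraries.

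Compared directly, the siRNAs differed in 2 HOX genes, at a background of 15.2% of all genes tested higher and 13.4% lower with siTAZ #1 than with siTAZ #2. HOXA4 was lower with siTAZ #1 (log2 difference -1.18, SE 0.31, FDR = 0.037), and so was HOXB5 (-0.53, SE 0.10, FDR = 0.011). The siTAZ #1 libraries lay below both siTAZ #2 libraries for 9 of the 14 genes, against 33.0% of all genes tested, and above them for HOXA5 alone, against 32.6%. The median log2 difference of the 14 was -0.36, beside -0.01 over all genes tested. With the depleted region left out, 7 HOX genes were lower with siTAZ #1 (HOXA3, HOXA4, HOXB2, HOXB3, HOXB4, HOXB5 and HOXB6), at a background of 18.5%. Of the fits that left out a library, the call for HOXA4 held only in that without siTAZ #1 replicate 1 (FDR = 0.02). Its FDR was 0.056 when siNTC replicate 1 was left out and 0.057 for siNTC replicate 2, then 0.061 for siTAZ #1 replicate 2, 0.18 for siTAZ #2 replicate 1 and 0.071 for siTAZ #2 replicate 2. It was also lost with an offset for GC content (0.051), in a fit of 4 libraries (0.052) and in the exact test (0.059). The call for HOXB5 was lost without siTAZ #2 replicate 2 (0.079) and in the exact test (0.29). WWTR1 itself was lower with siTAZ #1 than with siTAZ #2, and so was the HOX sum, while siNTC had the highest WWTR1 level and the lowest HOX sum. A relation between the WWTR1 level and the HOX sum was not tested.

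The HOX genes that were low or not detected in siNTC mostly stayed near 0. Summed over the 16 posterior genes, the level was 1.14 and 1.45 CPM with siNTC, 1.36 and 2.61 with siTAZ #1, and 2.85 and 1.33 with siTAZ #2, and the groups overlapped. HOXD12 had 0 counts in all 6 libraries. HOXD1, in the anterior end of HOXD, was at 0.571 and 0.126 CPM with siNTC, 0.323 and 0.491 with siTAZ #1, and 1.22 and 1.69 with siTAZ #2. Its siTAZ #2 libraries lay above the others, on 26 and 28 counts, and it was not called (FDR = 0.089). HOXC8 was at 0.697 and 0.694 CPM with siNTC, 0.968 and 0.705 with siTAZ #1, and 0.888 and 1.03 with siTAZ #2, and was not called. HOXA10 had 3, 1, 1, 16, 14 and 3 counts over the libraries in the order siNTC, siTAZ #1, siTAZ #2. The 16 and 14 counts (0.491 and 0.654 CPM) were in siTAZ #1 replicate 2 and siTAZ #2 replicate 1, the 2 libraries with the most counts. HOXC6 had 7, 8, 6, 5, 11 and 22 counts in the same order. The other 15 low genes that were not tested had at most 13 counts in any library. Of the 6 genes not detected in siNTC, HOXA11, HOXC11, HOXC5, HOXB1 and HOXD4 had at most 7 counts in any siTAZ library.

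The genes of the TALE partners of HOX proteins, listed together with PBXIP1, changed in both directions with siTAZ #2. Of the 9 genes of this list that are reported (PBX2 to PBX4, MEIS1 to MEIS3, PKNOX1, PKNOX2 and PBXIP1), 4 were higher and 4 lower with siTAZ #2, against 14.1% and 14.4% of all genes tested. With siTAZ #1 edgeR called 0 higher and 0 lower, against 10.8% and 9.78%. At an unadjusted p under 0.05, 2 were higher and 2 lower, against 18.8% and 16.6%. DESeq2 called 2 higher and 1 lower, against 14.9% and 13.4%. The median log2 fold change was -0.39 with siTAZ #2 and -0.05 with siTAZ #1.

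MEIS2, a partner in limb and heart development, was at 43.1 and 52.8 CPM with siNTC, 36.6 and 36.6 with siTAZ #1, and 18.4 and 16.3 with siTAZ #2, and fell by 1.47 with siTAZ #2 (SE 0.15, FDR = 0.002). PBX3 was at 42.0 and 43.5 CPM with siNTC, 35.9 and 41.1 with siTAZ #1, and 17.8 and 17.5 with siTAZ #2, and fell by 1.28 with siTAZ #2 (SE 0.13, FDR = 0.0018). PBXIP1, which binds PBX proteins and hinders their DNA binding, was at 69.2 and 64.8 CPM with siNTC, 76.8 and 93.6 with siTAZ #1, and 165 and 180.3 with siTAZ #2. It was higher with siTAZ #2 by 1.37 on the log2 scale (SE 0.12, FDR = 0.0014). These 3 differed between the siRNAs by over 1 on the log2 scale, with FDR = 0.0047 for MEIS2, 0.0025 for PBX3 and 0.003 for PBXIP1. PKNOX2, a relative of the MEIS genes, was at 5.20 and 5.36 CPM with siNTC, 3.68 and 4.48 with siTAZ #1, and 10.9 and 9.48 with siTAZ #2, which lay above all the others. It was higher with siTAZ #2 by 0.95 on the log2 scale (SE 0.22, FDR = 0.024), and lower with siTAZ #1 than with siTAZ #2 by a log2 difference of -1.31 (SE 0.22, FDR = 0.0084). The first call was lost when any siNTC or siTAZ #2 library was left out (FDR from 0.078 to 0.12), and the second without siTAZ #2 replicate 1 (0.053).

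**Figure D4:**
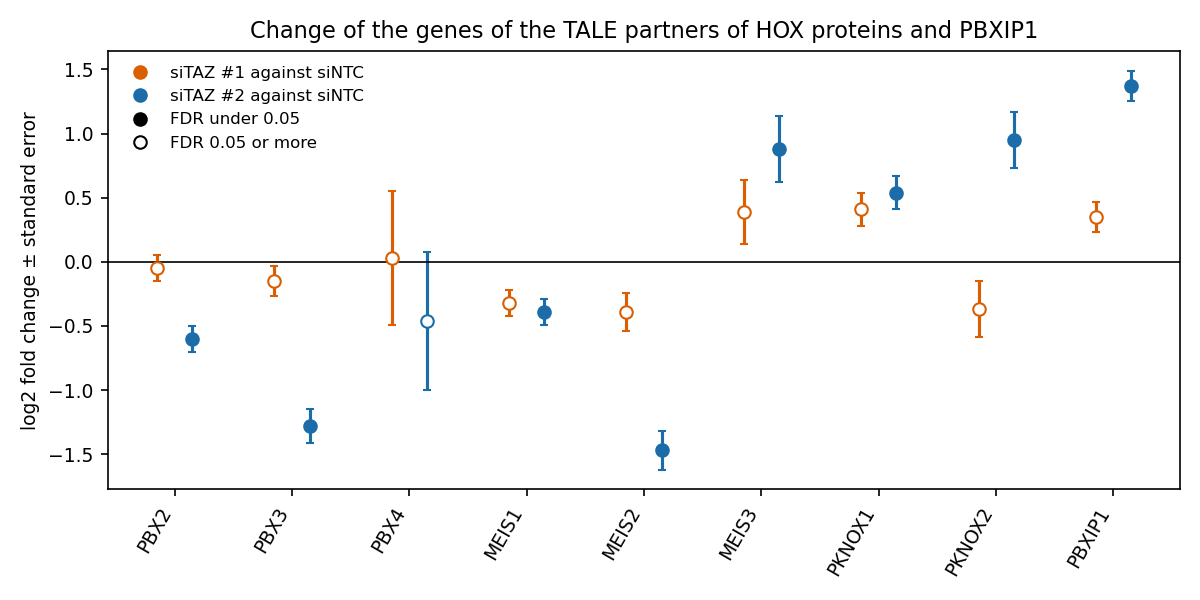
Log2 fold change against siNTC with its standard error for the TALE partner genes and PBXIP1, with siTAZ #1 in orange and siTAZ #2 in blue, and filled points at an FDR under 0.05. With siTAZ #2 MEIS2 lies lowest at -1.47 and PBXIP1 highest at 1.37, and with siTAZ #1 no point is filled.

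Of the 23 Polycomb genes, 3 were higher and 2 lower with siTAZ #1 (10.8% and 9.78% of all genes tested), and 2 were higher and 6 lower with siTAZ #2 (14.1% and 14.4%). PHC2 and PHC3, subunits of the PRC1 complex, were higher with both. PHC2 was at 159.6 and 166.7 CPM with siNTC, 308 and 307 with siTAZ #1, and 194 and 199.7 with siTAZ #2 (FDR = 0.0015 and 0.04), and its siTAZ #2 call was lost when any siNTC or siTAZ #2 library was left out (0.12 to 0.25), with low counts not filtered (0.093), and with an offset for GC content, where its log2 fold change went from 0.27 to 0.11 (0.26). PHC3 was at 20.0 and 20.9 CPM with siNTC, 34.4 and 35.5 with siTAZ #1, and 33.2 and 34.7 with siTAZ #2 (FDR = 0.0085 and 0.0073). Without siNTC replicate 1 or siNTC replicate 2, PHC3 was not called with siTAZ #1 (0.086 and 0.074) or siTAZ #2 (0.071 and 0.06), nor with siTAZ #2 when its replicate 2 was left out (0.055), nor with siTAZ #1 in the exact test (0.20). PHC1 and CBX8, also of PRC1, differed between the siRNAs by 1.14 and -1.04 on the log2 scale (SE 0.14 and 0.22, FDR = 0.0031 and 0.019), and CBX8 was not called when siTAZ #2 replicate 2 was left out (0.10). EZH2, the methyltransferase of the PRC2 complex, lies outside the rule for named genes and was added once its values were known. It was at 67.0 and 62.0 CPM with siNTC, 56.1 and 59.6 with siTAZ #1, and 37.1 and 34.8 with siTAZ #2, where it fell by 0.84 (SE 0.11, FDR = 0.0041). How that call fared in the alternatives is not given. Other PRC2 genes differed: with siTAZ #2 EZH1 was lower (-0.92, SE 0.19, FDR = 0.018), and EED (0.04) and SUZ12 (0.29) were not called. SUZ12 was higher with siTAZ #1 (0.80, SE 0.14, FDR = 0.015). RBBP7 lies in the region lost from replicate 2 of siTAZ #1, so its fold changes are not read here.

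Of the 9 Trithorax and demethylase genes reported, 1 was higher and 0 lower with siTAZ #1 (10.8% and 9.78% of all genes tested), and 2 were higher and 0 lower with siTAZ #2 (14.1% and 14.4%). DESeq2 also called 0 lower with each siRNA, where it called 1877 (siTAZ #1) and 2535 (siTAZ #2) of all 14053 genes tested lower. At an unadjusted p under 0.05, 1 was lower with each, where 2330 and 2890 of all genes tested were. DOT1L, a histone methyltransferase of active genes, was at 36.8 and 42.2 CPM with siNTC, 56.0 and 58.2 with siTAZ #1, and 68.3 and 64.1 with siTAZ #2, and was higher with both siRNAs (FDR = 0.028 and 0.0074). With siTAZ #1, its call was lost when any siNTC library (0.17 and 0.094) or any siTAZ #2 library (0.062 and 0.064) was left out, in a fit of 4 libraries (0.062) and in the exact test (0.50). With siTAZ #2, it was lost without siNTC replicate 1 (0.066) or siTAZ #2 replicate 1 (0.051). KDM6A lies in the depleted region, so its fold changes are not read here.

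Of 18 retinoic acid genes in the table, 10 were tested. With siTAZ #1, 4 were higher and 3 lower, against 10.8% and 9.78% of all genes tested, and with siTAZ #2, 3 were higher and 1 lower, against 14.1% and 14.4%. The 4 include CYP26B1, given here only for its low counts. It had 13 and 3 counts with siNTC, 61 and 127 with siTAZ #1, and 14 and 6 with siTAZ #2. Its siNTC level was near the floor, so its call is not read further. DHRS3, which reduces retinaldehyde and is itself induced by retinoic acid, was at 1.97 and 1.58 CPM with siNTC, 3.94 and 4.36 with siTAZ #1, and 23.2 and 23.9 with siTAZ #2. On the log2 scale it was higher by 1.23 with siTAZ #1 (SE 0.21, FDR = 0.013) and by 3.73 with siTAZ #2 (SE 0.22, FDR = 0.00063). ALDH1A3, which makes retinoic acid, was at 10.1 and 12.0 CPM with siNTC, 26.7 and 28.9 with siTAZ #1, and 19.1 and 23.3 with siTAZ #2 (FDR = 0.0062 and 0.013). RARG, a retinoic acid receptor, was lower with both, at 35.2 and 41.2 CPM with siNTC, 23.0 and 25.1 with siTAZ #1, and 19.5 and 20.1 with siTAZ #2 (FDR = 0.023 and 0.0058). RDH10, which makes retinaldehyde, was higher with siTAZ #1 (log2 fold change 0.95, FDR = 0.011), and differed between the siRNAs by 1.37 (SE 0.16, FDR = 0.0027). When siNTC replicate 1 was left out, the siTAZ #1 calls of DHRS3 (0.061), ALDH1A3 (0.063), RARG (0.077) and RDH10 (0.09) were lost, as was the siTAZ #2 call of ALDH1A3 (0.092). For siNTC replicate 2 these were DHRS3 (0.09), RARG (0.14) and RDH10 (0.092) with siTAZ #1 and ALDH1A3 with siTAZ #2 (0.058). Leaving out siTAZ #2 replicate 2 ended the siTAZ #2 call of ALDH1A3 (0.078) and the siTAZ #1 call of RARG (0.051), and leaving out siTAZ #2 replicate 1 ended the latter too (0.054). The siTAZ #1 calls of RARG (0.31) and RDH10 (0.087) were also lost in the exact test, and that of DHRS3 in a fit of 4 libraries (0.059).

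The other genes beside the clusters and the CDX group gave 8 tested of 18, with 2 higher and 2 lower with siTAZ #1 (10.8% and 9.78% of all genes tested), and 1 higher and 2 lower with siTAZ #2 (14.1% and 14.4%). CBX5, which encodes the heterochromatin protein HP1α and lies beyond the end of HOXC, was at 310.1 and 303 CPM with siNTC, 126 and 137 with siTAZ #1, and 189 and 186 with siTAZ #2, lower with both (FDR = 0.0009 and 0.0025). KIAA1715, near HOXD, was higher with both, at 39.7 and 38.6 CPM with siNTC, 56.5 and 55.5 with siTAZ #1, and 66.5 and 63.4 with siTAZ #2 (FDR = 0.02 and 0.0049). SKAP2, near HOXA, was at 33.9 and 31.0 CPM with siNTC, 52.8 and 75.5 with siTAZ #1, and 35.6 and 25.4 with siTAZ #2, higher with siTAZ #1 (FDR = 0.036). With siNTC replicate 1 or siNTC replicate 2 left out, SKAP2 (0.16 and 0.20) and KIAA1715 (0.12 and 0.14) were not called with siTAZ #1, nor was KIAA1715 with siTAZ #2 (0.05 and 0.056). Without siTAZ #2 replicate 2, KIAA1715 was not called with siTAZ #1 (0.051), nor with the GC offset, where its log2 fold change with siTAZ #1 went from 0.52 to 0.31 (0.14). The exact test called neither KIAA1715 (0.50) nor SKAP2 (0.12) with siTAZ #1. The CDX genes, regulators of HOX genes in the embryo, were each under 0.5 CPM in every library. Of the noncoding RNAs of the HOX clusters, 15 were in the table and 3 were tested (HOTAIRM1, HOXA-AS3 and HOXB-AS3). edgeR called 0 in each comparison, against 10.8% and 9.78% of all genes tested higher and lower with siTAZ #1. The shares were 14.1% and 14.4% with siTAZ #2, and 15.2% and 13.4% between the siRNAs. DESeq2 also called 0, against 2088 and 1877, 2407 and 2535, and 2647 and 2264 of all 14053 genes tested in the same order. At an unadjusted p under 0.05 there were 0, against 2637 and 2330, 2926 and 2890, and 2962 and 2728. With 3 genes tested, 0 calls are not read as a result about these RNAs. HOTAIRM1, an RNA of the HOXA cluster, was at 9.32 and 5.93 CPM with siNTC, 10.1 and 6.87 with siTAZ #1, and 1.87 and 6.77 with siTAZ #2.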

How the data were processed

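RNA from HFL-1 cells was sequenced on an Ion Proton. The authors mapped the reads to hg19 (TMAP), tallied them by gene (HTSeq 0.6.1, per the labels) and deposited these raw counts, not normalized. The strand setting and counting mode are not given in the sources used here. Of 23368 rows, 13 carried a date in place of a symbol and were left out (0.0458% to 0.0506% of counts). Totals were 15648055 to 32078188 counts per library. Positions and transcript lengths came from the GENCODE annotation of GRCh37.

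Low counts were removed with filterByExpr, which left 14053 genes. All 6 libraries, scaled by TMM, entered 1 quasi-likelihood fit with group as the term (edgeR 4.0.16, R 4.3.3), and p-values were adjusted by Benjamini-Hochberg over these genes. A standard error is the log2 fold change divided by the root of its F statistic. The test was checked on simulated data. Each siRNA was compared with siNTC and with the other. Replicate numbers were not used to pair the libraries in this fit. Alternatives were DESeq2 1.42.0, the exact test, fits of 4 libraries, other scalings and filters, a GC offset (GC known for 95.4% of genes), a replicate block, each library left out, an FDR of 0.1, and the depleted region of chromosomes 22, X and Y left out. A crossed block was chosen after seeing the data.

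Named genes are all HOX genes on in siNTC or called, and up to 4 genes per list that passed with the same sign for both siRNAs or differed between them by over 1 on the log2 scale. The members and lists were chosen with earlier results of these data known. KMT2B and KMT2D were not matched to a row. Some genes of the clusters and lists are not reported here and enter no count, sum or median of the HOX genes or lists. Promoter motifs were searched as exact letters on both strands.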

Additional observations from a re-analysis of the deposited data

Results flagged for a closer look

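HOXA4 and HOXB5 were singled out because their levels with the 2 siRNAs differed in the direct test of siTAZ #1 against siTAZ #2. HOXA4 was lower with siTAZ #1 by a log2 difference of -1.18, and HOXB5 by -0.53. For both, each siTAZ #1 library lay below each siTAZ #2 library, and WWTR1 was also lower with siTAZ #1. What an siRNA does beyond its target was not tested.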

How the results depend on the processing

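No call of a HOX gene, of WWTR1 or of a gene named by the rule reversed in sign under any of the alternatives. Values that were not called could change sign. HOXA6 with siTAZ #2 had a log2 fold change of 0.03 in the main fit and -0.12 with the GC offset. With siTAZ #1, the 1 HOX gene called higher was 0 in the exact test, 2 with the GC offset, 3 at an FDR of 0.1, and 0 to 3 with a library left out. With siTAZ #2, the 7 called higher were 1 to 9 with a library left out and 6 to 10 otherwise (10 in the exact test and in a fit of 4 libraries). The 1 called lower, HOXA5, was 0 with library-total scaling, the GC offset, the replicate block and with low counts not filtered, and 0 to 1 with a library left out. Between the siRNAs, the count of 0 higher was 1 at an FDR of 0.1, and the count of 2 lower was 5 with DESeq2, 1 in the exact test, 1 in a fit of 4 libraries, 7 without the depleted region of chromosomes 22, X and Y, 1 with the GC offset, 4 at an FDR of 0.1, 1 with the replicate block, and 0 to 4 with a library left out. The cause of these shifts was not tested, other than that leaving out a library leaves a group with a lone library, whose spread was then taken from the remaining groups. The HOX genes tested were 15 in the main fit, 17 to 19 with a library left out, and 37 with low counts not filtered. DESeq2 called 2264 of all 14053 genes tested lower between the siRNAs. For most other alternatives no share over all genes is given, so their counts are not read as results about the HOX genes. Unlike the counts further up, those of this paragraph include HOXD1 wherever it passed. It did so with siTAZ #2 at an FDR of 0.1 (0.089) and without the depleted region (0.045). HOXD1 passed the count filter through its siTAZ #2 libraries, so its part in these counts is no support. The number of HOX genes on was 14 at 0.5 CPM, 10 at 2 CPM, and 15 by edgeR's filter.

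Deviations of same-numbered libraries were nearly uncorrelated for siNTC with siTAZ #1 (r over 11534 genes of -0.00473) and with siTAZ #2 (0.0173). Between the siRNAs they ran in opposite directions (-0.322), which the main fit, with group as its only term, does not model. With the replicate block, 1 gene was higher with siTAZ #1, 7 were higher and 0 lower with siTAZ #2, and 1 was lower with siTAZ #1 than with siTAZ #2. HOXB2 (FDR = 0.061) left the 7 and HOXB7 (0.027) joined them, and HOXA4 (0.077) was lost between the siRNAs, as were the siTAZ #1 calls of DOT1L (0.069), KIAA1715 (0.056) and SKAP2 (0.082) and the siTAZ #2 calls of PHC2 (0.086) and PKNOX2 (0.057). With a crossed block, chosen after seeing the data, the higher calls with siTAZ #2 were 7 or 6 and the lower calls 0, and 2 genes were lower with siTAZ #1 than with siTAZ #2, HOXA4 not among them. Depth limits the posterior genes, none of which had enough counts to be tested.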
